A study of Mus musculus with 6 samples.

Results

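A set of 10 genes that carry out or tune Notch signalling was followed in RNA from the mouse optic nerve. They are the Hes and Hey family genes Hes1, Hes5, Hes6, Hey1, Hey2 and Heyl, the DNA-binding factor Rbpj, and the modulators Nrarp, Lfng and Dtx4. The members were taken by gene symbol, and all 10 were found among the 24062 genes of the deposited count tables. The mutant group had 3 libraries from PlpCreERT2;Nf1flox/flox animals, in which a Cre recombinase driven by the Plp promoter, active in oligodendrocytes, removes both floxed copies of Nf1 once tamoxifen is given. Nf1 encodes neurofibromin, which lowers Ras activity. The control group had 3 libraries from animals without a Cre in their genotype, of which library 1 was Nf1flox/flox and libraries 2 and 3 were Nf1flox/+. Animals of both groups were treated with tamoxifen as adults older than 2 months, and nerves were taken 1 month later. Every mutant library carries the Cre and no control does, so an effect of the Cre cannot be told apart from that of Nf1 loss, and RNA came from the whole nerve and not from sorted oligodendrocytes.

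Notch receptors are cut inside the membrane after they bind a ligand on a neighbouring cell, and the freed intracellular domain joins Rbpj on DNA and turns on genes of the Hes and Hey families. These encode basic helix-loop-helix proteins, most of them repressors that hold neural progenitors back from differentiation and shape arteries and their smooth muscle. Hes6 is an exception, known to oppose Hes1 and favour neuronal differentiation. In the oligodendrocyte lineage, Notch signalling is known to restrain the maturation of precursors. Nrarp is itself a Notch target and dampens the signal, Lfng adds a sugar to the receptors and shifts their response between ligands, and Dtx4 belongs to the Deltex family of ubiquitin ligases.

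The start regions of 4 genes are shown because Hes5 and Nrarp had the highest fold changes of the 10 genes, while Hey2 and Lfng hold the same core Rbpj letters as Hes5. The groups overlapped in Nrarp, Hey2 and Lfng. Each is 300 bases of RefSeq (GRCm38.p6), 250 before and 50 after the gene's start, which is the same base as in the deposited mm10 tables for all 4. The regions are chr4:154960673-154960972 on the plus strand for Hes5, chr2:25180508-25180807 on the plus strand for Nrarp, chr10:30842734-30843033 on the minus strand for Hey2 and chr5:140607091-140607390 on the plus strand for Lfng. They are written 5′ to 3′ along the gene, and capitals mark the core letters of the Rbpj motif, TGGGAA, or its reverse complement TTCCCA.
Hes5: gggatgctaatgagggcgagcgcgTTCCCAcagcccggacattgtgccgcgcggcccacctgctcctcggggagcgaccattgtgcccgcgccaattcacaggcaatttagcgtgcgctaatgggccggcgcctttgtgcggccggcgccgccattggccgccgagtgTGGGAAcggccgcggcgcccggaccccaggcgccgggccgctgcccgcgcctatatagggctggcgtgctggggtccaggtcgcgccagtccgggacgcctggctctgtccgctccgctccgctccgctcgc
Nrarp: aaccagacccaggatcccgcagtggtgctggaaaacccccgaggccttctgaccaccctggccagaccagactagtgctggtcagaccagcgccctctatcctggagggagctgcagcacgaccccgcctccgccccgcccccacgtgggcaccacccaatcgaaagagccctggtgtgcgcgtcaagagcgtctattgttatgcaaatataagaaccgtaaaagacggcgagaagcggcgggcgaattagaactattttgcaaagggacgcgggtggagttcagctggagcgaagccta
Hey2: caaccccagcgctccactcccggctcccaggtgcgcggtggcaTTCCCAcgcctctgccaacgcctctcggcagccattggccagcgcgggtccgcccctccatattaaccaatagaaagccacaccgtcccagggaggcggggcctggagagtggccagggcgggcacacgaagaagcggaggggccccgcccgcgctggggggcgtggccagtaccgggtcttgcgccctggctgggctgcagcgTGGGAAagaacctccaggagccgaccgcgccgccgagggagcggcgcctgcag
Lfng: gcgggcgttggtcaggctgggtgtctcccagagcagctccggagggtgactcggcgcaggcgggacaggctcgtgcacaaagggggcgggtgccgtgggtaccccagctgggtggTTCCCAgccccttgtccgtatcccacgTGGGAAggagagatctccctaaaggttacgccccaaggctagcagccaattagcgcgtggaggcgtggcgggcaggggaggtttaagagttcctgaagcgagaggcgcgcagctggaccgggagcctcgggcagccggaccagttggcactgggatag

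Hes5 held the core letters 226 and 82 bases before its start, both preceded by a G on the motif's own strand (GTGGGAA). In Hey2 both matches also had the G, and they began 207 and 3 bases before the start. Lfng had the core 135 and 108 bases before its start, the nearer one with the G. Among the 32851 start regions of this length in RefSeq, 25.6% held TGGGAA on either strand, and 6.38%, all of them also holding the shorter letters, held GTGGGAA. The Nrarp region held none. Both strands were also searched for CACNAG, the N-box that Hes proteins are known to bind, found in 42.5% of all start regions, and for CACGNG, a further Hes and Hey binding motif, found in 27.5%. CACNAG stood at 2 places in Nrarp and 1 place in Lfng, and CACGNG at 1 place in Nrarp and 3 places in Lfng, of which 1 is the same letters as the CACNAG of Lfng. Hes6 held both motifs across its 2 start regions, and Hes5, Hey2 and Rbpj held neither. Of the 6 members with a start region in the table, Hes5, Hes6, Hey2, Nrarp, Lfng and Rbpj, the core was present in 4, Rbpj being the other one. Hes1, Hey1, Heyl and Dtx4 were not matched. The letters are a description and not a measure of binding.

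Libraries held 13555756 to 19012262 counts in mutants and 21307855 to 23662698 in controls. Nf1 itself had 304, 226 and 433 CPM (counts scaled to library size with TMM factors) in mutant libraries 1, 2 and 3, against 394, 400 and 337 CPM in control libraries 1, 2 and 3, so the ranges of the groups overlapped. The deleted exons are not counted apart from the rest of Nf1, and its level is therefore no check of the genotypes. Mutant library 2 stood apart from the other mutants. The summed level of 12 markers of mature oligodendrocytes and myelin was 35907 CPM in it, against 5930 and 5004 CPM in mutant libraries 1 and 3 and 27656 to 28746 CPM in controls. Fold changes of the members are given with and without this library. Xist, expressed from the inactive X chromosome, had 30602 to 51760 counts in all 3 mutants and 72727 in control library 2, but 58 and 34 counts in control libraries 1 and 3, so the sexes were not balanced between the groups.

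None of the 10 genes changed between mutant and control nerves in the edgeR quasi-likelihood test, at a p under 0.05 after Benjamini-Hochberg adjustment over all 16315 genes that were tested. Across all genes tested 3.29% passed, which would be less than 1 gene of 10, so the count is near that background. The same count was 0 by DESeq2, where 9.17% of the 18060 genes with an adjusted p passed, and 0 by limma-voom, and 2 members, Hes5 and Nrarp, had an unadjusted p under 0.05 by edgeR, against 19.2% of all genes. The median log2 fold change of the members was -0.24, beside -0.0017 over all genes tested, with 3 members positive and 7 negative. The groups did not overlap in 2 members, Hes5 above and Dtx4 below, a pattern found in 24.0% of all genes tested. In whole-nerve RNA, fewer cells of a type and less RNA per cell cannot be told apart.

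**Figure D1:**
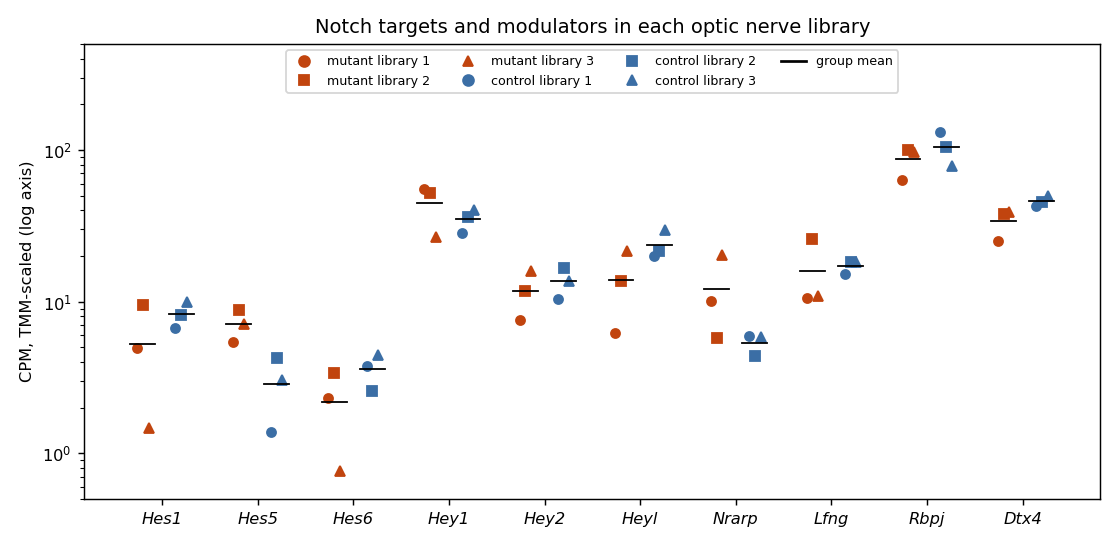
Level of each of the 10 genes in every library, in CPM on a log axis, with mutants left of controls and a line at each group's mean. Hes5 is the gene whose 3 mutant points (5.40 to 8.84 CPM) all lie above its controls (1.39 to 4.23 CPM), and Dtx4 the gene whose mutant points all lie below.

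Hes5, a direct Notch target of neural progenitors and astrocytes (chromosome 4, 154960923 to 154962371, plus strand, 3 exons), had 5.40, 8.84 and 7.12 CPM in mutant libraries 1, 2 and 3, against 1.39, 4.23 and 3.03 CPM in control libraries 1, 2 and 3. The lowest mutant stood above the highest control, and the lowest control was the Nf1flox/flox one. Means were 7.12 ± 1.72 CPM in mutants and 2.88 ± 1.43 CPM in controls (SD, n = 3 each). Its log2 fold change of 1.30 (SE 0.48) was the largest of the 10 genes, and it missed the threshold (edgeR adjusted p = 0.184, and 0.0738 to 0.851 over the 16 alternatives tried). Counts were low, at 100 to 117 per mutant library and 28 to 102 per control library. In mutant library 1 the exact 95% Poisson interval, which covers counting error only, was 4.39 to 6.56 CPM, and it overlapped that of control library 2, 3.45 to 5.13 CPM. With the level of Xist as a covariate the log2 fold change was 0.81. The summed level of 12 astrocyte markers was 5920 to 7129 CPM in mutants and 5839 to 6025 CPM in controls, with 0 of 12 passing and none at 0 counts in all libraries. The largest single part of that sum in both groups was the glutamate transporter gene Slc1a2. It had 3990 ± 779 CPM in mutants and 1922 ± 98.6 CPM in controls (SD, n = 3 each). The median log2 fold change of the 12 was -0.46, with 7 negative, among them Gfap at -1.18, Gjb6 at -1.37 and Agt at -1.33. The part of astrocyte RNA in the Hes5 difference was not tested.

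Hes1, the repressor that keeps progenitors dividing (chromosome 16, 30065357 to 30067796, plus strand), showed no such separation. It had 4.91, 9.45 and 1.47 CPM in mutant libraries 1, 2 and 3, against 6.74, 8.13 and 9.999 CPM in the controls in the same order. Mutant library 2 lay within the control range and mutant libraries 1 and 3 lay below it. The low value of mutant library 3 rested on 21 counts, with an exact 95% Poisson interval of 0.907 to 2.24 CPM that lay below the intervals of all 3 controls. Over the groups the log2 fold change was -0.65 (SE 0.57, adjusted p = 0.578 by edgeR). It was -0.21 without mutant library 3, -1.36 without mutant library 2 and 0.19 for mutant library 2 alone against the controls, none of which passed.

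Hes6, which is known to oppose Hes1 and favour neuronal differentiation (chromosome 1, 91411483 to 91413222, minus strand), was the member with the lowest mean count. It had 2.32, 3.40 and 0.767 CPM in the mutant libraries, against 3.76, 2.57 and 4.44 CPM in the controls. The lowest value was again that of mutant library 3, with 11 counts, while mutant library 2 lay within the control range and mutant library 1 just below it. The log2 fold change was -0.73 (SE 0.58, adjusted p = 0.532 by edgeR), and it was -0.33 without mutant library 3. Hes1, Hes5 and Hes6 therefore differed within a single library, since mutant library 3 stood at 1.27 log2 units from the control mean for Hes5, at -2.14 for Hes1 and at -1.66 for Hes6.

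**Figure D2:**
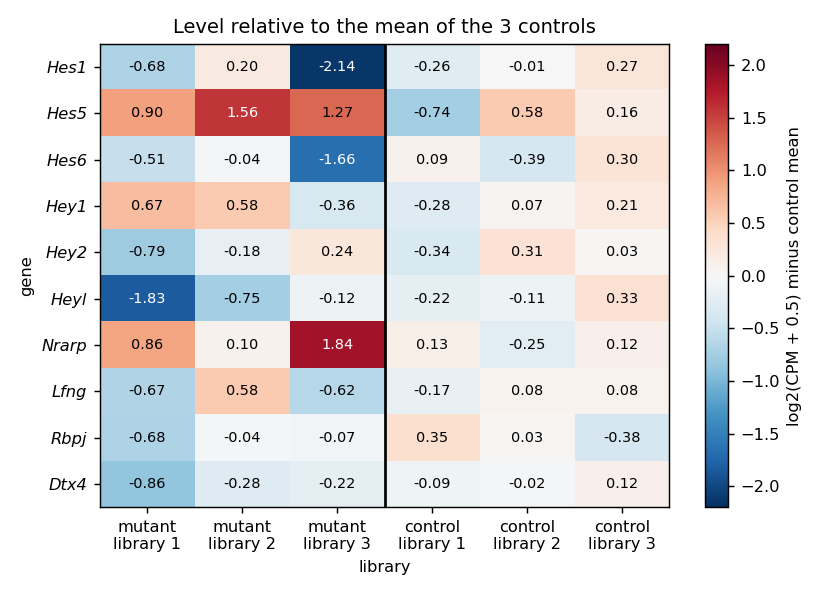
Level of each gene in each library as log2(CPM + 0.5) minus the mean of the 3 controls, with red above and blue below. Hes5 is above the control mean in all 3 mutants (0.90 to 1.56), whereas Hes1 runs from -2.14 to 0.20 and Nrarp from 0.10 to 1.84 among them.

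The Hey genes, best known from arteries, gave 3 different patterns. Hey1 (chromosome 3, 8663359 to 8667038, minus strand) had 55.5, 51.8 and 26.9 CPM in mutant libraries 1, 2 and 3, against 28.5, 36.3 and 40.2 CPM in control libraries 1, 2 and 3. Mutant libraries 1 and 2 stood above every control and mutant library 3 below every control, so the mutants lay on both sides. The log2 fold change was 0.36 (SE 0.31, adjusted p = 0.574 by edgeR).

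Hey2 (chromosome 10, 30832359 to 30842783, minus strand) had 7.55, 11.7 and 15.9 CPM in the mutant libraries, against 10.5, 16.8 and 13.6 CPM in the controls. Only mutant library 1 left the control range, on its lower side. Its log2 fold change was -0.22 (SE 0.35, adjusted p = 0.778 by edgeR). Heyl, a Notch target of vascular smooth muscle (chromosome 4, 123233556 to 123249870, plus strand), had 6.21, 13.7 and 21.5 CPM in the mutant libraries, against 20.0, 21.5 and 29.5 CPM in the controls. Mutant libraries 1 and 2 lay below every control, and mutant library 3 lay within their range. The log2 fold change was -0.78 (SE 0.42, adjusted p = 0.352 by edgeR), the lowest of the 10 genes.

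Summed levels of vessel markers were lower in the mutant libraries. A list of 12 markers of pericytes and smooth muscle summed to 140, 281 and 126 CPM in mutant libraries 1, 2 and 3 and to 331 to 357 CPM in controls, with 0 of 12 passing. The 12 endothelial markers summed to 136, 265 and 143 CPM in the mutants and to 348 to 379 CPM in controls, and 1 of 12 passed, Kdr, which was lower. Across all genes tested 3.29% passed, and 0.337% passed and were lower. An unadjusted p under 0.05 by edgeR was found in 8 of the 12 endothelial markers, against 19.2% of all genes. No marker of either list was at 0 counts in all libraries. Both vessel sums were highest in mutant library 2, and those of mutant libraries 1 and 3 were close to each other. Heyl and Hey2 levels were lowest in mutant library 1, intermediate in mutant library 2 and highest in mutant library 3. The part of these cells in the Hey values was not tested.

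Rbpj, the factor through which Notch reaches DNA (chromosome 5, 53555779 to 53657445, plus strand, 14 exons), had 63.5, 99.2 and 97.5 CPM in mutant libraries 1, 2 and 3, against 131, 104 and 78.5 CPM in control libraries 1, 2 and 3. Only mutant library 1 lay outside the control range, below it. The log2 fold change was -0.27 (SE 0.27, adjusted p = 0.643 by edgeR). Rbpj had the most counts of the 10 genes, 1177 to 2636 per library, so its value is limited by the spread between libraries more than by depth.

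Nrarp, the Notch-induced inhibitor of Notch (chromosome 2, 25180758 to 25183332, plus strand, 1 exon), had 10.1, 5.74 and 20.4 CPM in the mutant libraries, against 5.89, 4.40 and 5.81 CPM in the controls. Mutant libraries 1 and 3 were above every control, while mutant library 2 was within the control range. Means were 12.1 ± 7.51 CPM in mutants and 5.37 ± 0.841 CPM in controls (SD, n = 3 each). On the log2 scale the difference was 1.17 (SE 0.46), and the adjusted p by edgeR was 0.215. Without mutant library 2 the log2 fold change was 1.51 (SE 0.36) and passed (edgeR adjusted p = 0.00992, against 0.957 for mutant library 2 alone, the highest of the 16 alternatives). In that setting 27.0% of 16857 genes tested passed, so the call is one of many. Without mutant library 3, which had the highest level, the log2 fold change was 0.57 (edgeR adjusted p = 0.537). Nrarp was the 1 member to pass without mutant library 2, and it passed in none of the other 15 alternatives.

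Lfng, the Fringe enzyme (chromosome 5, 140607341 to 140615545, plus strand, 8 exons), had 10.6, 25.8 and 10.95 CPM in mutant libraries 1, 2 and 3, against 15.2, 18.2 and 18.2 CPM in control libraries 1, 2 and 3. Mutant library 2 was above every control, and mutant libraries 1 and 3 were below every control. The log2 fold change of -0.12 (SE 0.38, adjusted p = 0.891 by edgeR) was the smallest in size of the 10 genes and describes none of the mutants. It was -0.67 without mutant library 2 (adjusted p = 0.0894 by edgeR) and 0.59 for mutant library 2 alone (adjusted p = 0.453 by edgeR).

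Dtx4, the Deltex ligase (chromosome 19, 12466336 to 12501996, minus strand, 9 exons), had 25.0, 37.8 and 39.2 CPM in the mutant libraries, against 42.9, 45.1 and 49.7 CPM in the controls. All 3 mutants lay below all 3 controls. The means were 34.0 ± 7.81 CPM in mutants and 45.9 ± 3.50 CPM in controls (SD, n = 3 each). Its log2 fold change was -0.43 (SE 0.25, adjusted p = 0.377 by edgeR), and the value stayed between -0.55 and -0.25 over the alternatives.

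Leaving out mutant library 2 made the members' median log2 fold change -0.44, against 0.01 for mutant library 2 alone. Of the members not yet given in that setting, Hes5 was at 1.12, Hes6 at -1.19, Hey1 at 0.24, Hey2 at -0.21, Heyl at -0.77, Rbpj at -0.37 and Dtx4 at -0.51, and none of these passed. Mutant library 1 weighed on other members, since without it Hey1 was at 0.17, Heyl at -0.43, Rbpj at -0.08 and Dtx4 at -0.25. Without mutant library 3, Hey1 was at 0.62 and Heyl at -1.26, and Rbpj was at -0.06 without control library 1. None of these passed. The directions of Hes5, Hes6, Hey1, Heyl, Nrarp, Rbpj and Dtx4 were the same under all 16 alternatives, while Hes1, Hey2 and Lfng reversed under at least 1.

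**Figure D3:**
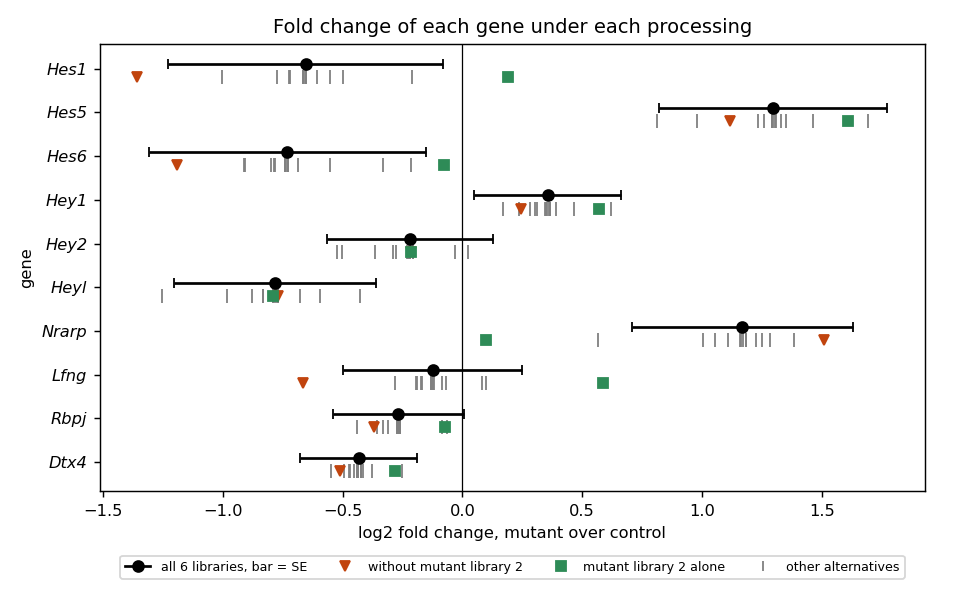
Log2 fold change of mutant over control for each gene, with its SE from all 6 libraries (black) and the values under each alternative below it. Hes1, Hey2 and Lfng cross 0 under at least 1 alternative, and Nrarp falls to 0.10 for mutant library 2 alone, against 1.51 without it.

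Per length the genes could be ordered, as CPM per kilobase of exon (RPKM). In mutants Hey1 came first at 20.3 RPKM, before Rbpj at 14.6, Lfng at 6.92, Dtx4 at 5.89, Hes5 at 5.59, Nrarp at 4.69, Hey2 at 4.63, Hes1 at 3.63, Heyl at 3.04 and Hes6 at 1.62 RPKM. In controls the mean level was highest for Rbpj at 17.5 RPKM, then Hey1 at 15.9, Dtx4 at 7.96, Lfng at 7.53, Hes1 at 5.71, Hey2 at 5.38, Heyl at 5.22, Hes6 at 2.69, Hes5 at 2.26 and Nrarp at 2.08 RPKM. In mutants every gene overlapped the next in the order. In controls the ranges separated at 2 steps, between Hey1 (12.9 RPKM at the lowest) and Dtx4 (8.62 at the highest) and between Heyl (4.42 at the lowest) and Hes6 (3.33 at the highest). Hes5 and Nrarp were in places 5 and 6 in mutants, against 9 and 10 in controls.

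The members varied more among the mutants than among the controls. Their median SD of log2(CPM + 0.5) was 0.64 in mutants and 0.28 in controls, beside 0.45 and 0.25 over all genes tested. Hes1 had the widest range, with the highest mutant 6.45 times the lowest, against 1.48 times in controls. Hes6 followed at 4.43 times in mutants and 1.73 times in controls, Nrarp at 3.55 and 1.34 times, and Heyl at 3.46 and 1.47 times. Hes5 and Rbpj went the other way, at 1.64 times in mutants and 3.05 times in controls for Hes5, and at 1.56 and 1.66 times for Rbpj. Nothing was tested about these spreads.

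In the rest of the pathway, 3 genes rose and none fell among the 62 tested of 67 in 5 lists, a share of 4.84%. Of all genes tested 2.95% rose and 0.337% fell. All 3 are ubiquitin ligases of the list of endocytosis and turnover genes, where 3 of 15 passed. An unadjusted p under 0.05 by edgeR was found in 6 of the 15, against 19.2% of all genes. All mutants were above all controls in 6 of the 15, while groups did not overlap, in either direction, in 24.0% of all genes tested. Neurl1b, a Neuralized ligase for Notch ligands, had 62.2, 31.7 and 49.5 CPM in mutant libraries 1, 2 and 3, against 2.03, 5.47 and 4.44 CPM in control libraries 1, 2 and 3, and its log2 fold change was 3.58 (SE 0.43, adjusted p = 0.00472 by edgeR). All mutants were far above all controls. Its relative Neurl1a rose by 2.11 (SE 0.34, adjusted p = 0.0163 by edgeR), and Nedd4l, best known for the turnover of an epithelial sodium channel, rose by 1.91 (SE 0.30, adjusted p = 0.0150 by edgeR). Neurl1b passed in every fit that left out 1 library, whereas Nedd4l lost its call without every library other than mutant library 2, and Neurl1a lost it without any 1 of the controls (edgeR adjusted p = 0.0509 to 0.108 for Nedd4l and 0.0870 to 0.108 for Neurl1a). With the level of Xist as a covariate none of the 3 passed, in a fit where 0 of all 16315 genes tested passed. Their log2 fold changes in that fit were 3.19, 2.42 and 1.97 for Neurl1b, Neurl1a and Nedd4l. Beside these, 12 markers of striatal projection neurons summed to 1940 to 2816 CPM in mutants and to 230 to 280 CPM in controls, and 12 of 12 rose. The 12 general neuron markers summed to 7715, 2318 and 5848 CPM in mutant libraries 1, 2 and 3 and to 814 to 1449 CPM in controls, with 6 of 12 higher and none at 0 counts in all libraries in either list. The part of neuronal RNA in the rise of the 3 ligases was not tested.

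**Figure D4:**
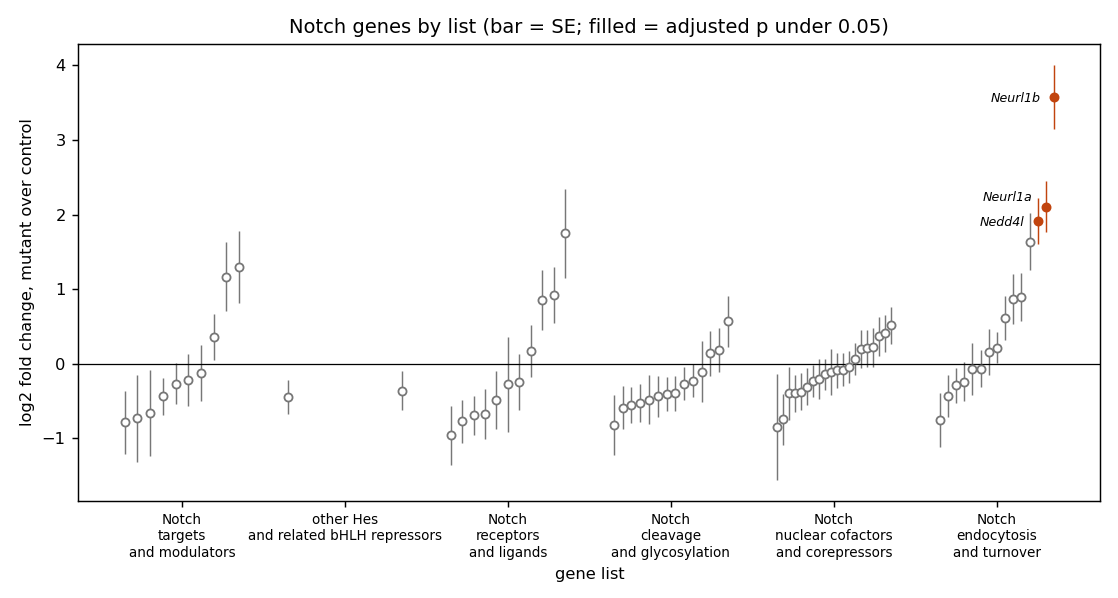
Log2 fold change (bar, SE) of the 10 genes and of the 62 tested genes of 5 other Notch lists, sorted within each list, mutant over control. Filled points passed edgeR's adjusted p threshold, and all 3 of them (Neurl1b, Neurl1a, Nedd4l) are in the endocytosis and turnover list.

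The receptor and ligand list, which lies upstream of the 10 genes, had 0 of 11 tested genes passing by edgeR and a median log2 fold change of -0.27. An unadjusted p under 0.05 was found in 5 of the 11, against 19.2% of all genes. By DESeq2 1 of 12 passed (Dlk2, a log2 fold change of 1.76), a share of 8.33% that is near the 9.17% of all genes. The smallest p belonged to Dlk2 (1.75, SE 0.60), the ligand gene Jag1 (-0.77, SE 0.29) and Notch1 (-0.69, SE 0.26), with edgeR adjusted p of 0.162, 0.188 and 0.202. Without mutant library 2, 17 of 64 genes of the 5 lists passed, 10 higher and 7 lower. Their share of 26.6% is near that of all genes in the setting, 27.0%, so the count is no result about these lists. From the receptor and ligand list, the genes passing in that setting were Notch1 at -0.98, Jag1 at -0.89, Notch2 at -1.55 and Dner at 1.26. In the other lists 0 of 14 cleavage and glycosylation genes passed, with 1 at an unadjusted p under 0.05, Ncstn at -0.55, Aph1a at -0.82 and Adam17 at -0.52. Of 20 nuclear cofactors 0 passed, with 0 at an unadjusted p under 0.05, Kat2b at -0.74, Tle4 at 0.51 and Hdac2 at 0.41. Of the related repressors, Bhlhe40 at -0.44 and Bhlhe41 at -0.36 were tested and neither passed, while Hes2, Hes3, Hes7 and Helt had too few counts to be tested. The counting ignored strand, and exons of Ncstn, Aph1a, Adam17, Bhlhe40 and Dlk2 overlap those of another gene, so these values are uncertain to that extent. Exons of the 10 members overlap no other gene in the deposited tables.

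Markers of the remaining cell types are given as a description of the tissue. Astrocyte and oligodendrocyte genes, the main glia of the optic nerve, were present in every library. Such glia are also found in the brain, so their presence is no check of the tissue label. The striatal list, at 1940 to 2816 CPM in mutants and 230 to 280 CPM in controls, belongs to the same description. Where its RNA came from was not tested. The 12 precursor markers summed to 814, 2441 and 651 CPM in mutant libraries 1, 2 and 3 and to 1946 to 2357 CPM in controls, with 0 of 12 passing. The 12 fibroblast markers summed to 320, 1116 and 391 CPM in the mutants and to 1553 to 1788 CPM in controls, and 12 microglial markers to 529, 909 and 411 CPM in the mutants and to 733 to 910 CPM in controls, with 0 of 12 passing in each, and 0 of 12 passing in the list of mature oligodendrocytes. Counts of 12 at an unadjusted p under 0.05 by edgeR, which 19.2% of all genes had, were 12 for striatal projection neurons, 11 for fibroblasts and 10 for neurons. They were 8 for endothelium, 5 for pericytes, 4 for astrocytes, 2 for precursors, 2 for microglia and 1 for mature oligodendrocytes. Among mutants, Hes1, Hes5, Hes6 and Lfng were highest in library 2, as were the sums of the oligodendrocyte, precursor, vessel, fibroblast and microglia lists. Rbpj was highest there by little (99.2 CPM, against 97.5 CPM in mutant library 3). So was the astrocyte sum (7129 CPM, against 7075 CPM in mutant library 1). Hey1 was highest in mutant library 1, and Hey2, Heyl, Dtx4 and Nrarp in mutant library 3. Nrarp was lowest in library 2, as were the sums of the neuron and striatal lists. The part of cell makeup in these values was not tested.

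**Figure D5:**
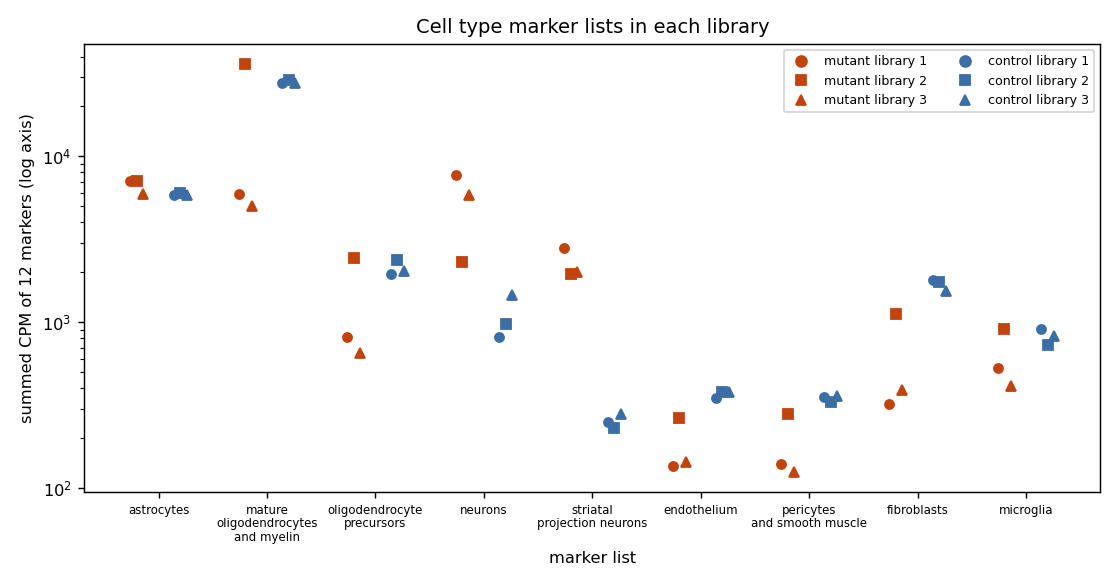
Summed CPM of 12 markers for each of 9 cell type lists in every library, on a log axis, with mutants left of controls. Mutant library 2 lies near the controls for oligodendrocyte lineage and microglia lists, and all 3 mutants lie above the controls for striatal projection neurons (1940 to 2816 against 230 to 280 CPM).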

How the data were processed

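Per the labels' protocols, optic nerve RNA was amplified (Ovation RNA-Seq System v2) before Nextera XT libraries were prepared. Each deposited table holds the raw fragment counts of 1 library. Per the file headers, the authors ran featureCounts 1.4.6-p4 in paired mode, ignoring strand, and summed exons by gene of the UCSC mm10 annotation. The deposited tables also give the summed exon length of each gene, used here for RPKM. TopHat and DESeq2 are named in the submitters' processing notes. Amplification precedes the count, so copies are not independent molecules.

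Groups follow the sample titles. Replicate numbers come from deposit order and carry no pairing. Whether each library is a separate animal is not given in the labels, so the p-values reflect the spread of these libraries, some of which may be technical. No pair of libraries agreed within sampling noise (chi-square over its degrees of freedom 45.6 or more). By this value mutant library 2 was nearer to the controls (59.5 to 63.8) than to mutant libraries 1 and 3 (181 and 203). Pairs of controls had 45.6 to 115.

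The test was edgeR 4.0.16 (R 4.3.3), quasi-likelihood, with TMM scaling and filterByExpr (minimum count 10), over 16315 genes, and all 10 members passed the filter. Each SE was computed as the absolute log2 fold change over the square root of F, and CPM values were scaled with TMM factors. DESeq2 1.42.0, limma-voom (limma 3.58.1) and 14 further alternatives were tried. Members, lists and tests were chosen with earlier results of these data known. All members were named, and from each other Notch list the genes that passed or, up to 3, those with the smallest p. Kdr, Gjb6, Agt, Notch2 and Dner were named after their values were seen. The marker lists share Pdgfra, Cspg4 and Notch3 with another list. Start regions are from RefSeq.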

Additional observations from a re-analysis of the deposited data

How the results depend on the processing

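Under 16 alternatives the log2 fold changes of the 10 members were recomputed 160 times. Of these, 154 kept their direction and their side of the threshold, 5 reversed and 1 passed where it had not. Reversed were Hes1 (0.19) and Lfng (0.59) for mutant library 2 alone, Hey2 (0.021) and Lfng (0.097) without mutant library 1, and Lfng (0.081) without mutant library 3. When single libraries were left out, Hey2 ranged from -0.50 to 0.021 and Lfng from -0.67 to 0.097. The cause was not tested. Nrarp passed without mutant library 2. The count of members passing was 0 to 1 when single libraries were left out and 0 otherwise.

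The count of all genes passing, 537, was 51 to 4551 when single libraries were left out. Leaving out mutant library 1, 2 or 3 gave 164, 4551 or 199 genes, and leaving out control library 1, 2 or 3 gave 51, 81 or 112. It was 870 without a filter on low counts, 1657 by DESeq2 (1164 higher, 493 lower), 222 for mutant library 2 alone and 0 by edgeR with Xist as a covariate, where 1302 genes had an unadjusted p under 0.05. The 3 genes of the other Notch lists became 1 to 17 when single libraries were left out, 5 by DESeq2 and 0 with Xist as a covariate. The alternative with Nf1flox/+ controls alone is the one without control library 1. Upper quartile scaling moved the median of all genes to -0.07, and no scaling changed a member's direction. No paired analysis was possible because the labels give no shared replicate numbers. The lowest counts were those of Hes6, Hes1 and Hes5, with 11, 21 and 28 in a library. The Poisson intervals of Hes1 in the 3 mutants did not overlap. These intervals do not cover noise from the amplification before counting, and the cause of the spread was not tested.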
